A study of Prunus yedoensis with 90 samples.

Results

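The buds compared here were the 6 apical bud samples of November and the 6 of October of the study's first calendar year, taken from the same 6 Yoshino cherry trees, and they are 12 of the 66 bud libraries and of the 90 libraries in all. They were chosen by tissue and calendar month as given in the labels (the labels' protocol also calls the sequenced RNA leaf RNA, and tissue was taken from the tissue label), and each November library was paired with the October library of its own tree. All trees were the cultivar 'Somei-yoshino' of Prunus yedoensis, a clone kept by grafting, so the trees differ little in genotype. There were 2 trees at each of 3 sites in Japan, standing outdoors with no treatment: southern Fukuoka, Tsukuba near Tokyo, and Sapporo on the northern island of Hokkaido. November buds were collected on day 22 in Fukuoka, day 16 in Tsukuba and day 8 in Hokkaido, and October buds on days 24, 7 and 11 at these sites. The interval was therefore 29 days in Fukuoka, 40 days in Tsukuba and 28 days in Hokkaido, so site, date and interval cannot be told apart. Ages of the trees were not given in the labels.

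A cherry bud is formed in summer and holds young leaves or flower primordia enclosed in bud scales. In autumn the bud stops growing and enters a dormancy that warmth alone does not end. Weeks of chilling then release it, and growth resumes with the warmth of spring. In Prunus this course is known to involve a group of MADS-box genes called DORMANCY-ASSOCIATED MADS-BOX, the hormones abscisic acid and gibberellin, and genes of cold acclimation. The deposited table lists genes by ID and does not pair IDs with names: 0 of the 84 gene symbols looked for occur in it. These families were therefore not analysed here, and the genes below are given by ID.

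Levels were given as TPM, a unit scaled for gene length and to the same total of 1000000 in every library, so the sequencing depth is unknown and no counting interval could be given. Of 95076 IDs, 40161 had a mean of at least 1 TPM over all bud libraries and were tested as log2(TPM + 1). Called genes had a limma adjusted p (Benjamini-Hochberg) under 0.05 together with a change of 1 or more on this scale, which is a doubling for abundant genes and understates the change of low ones. In the bulk tissue, fewer cells of a type and less RNA per cell cannot be told apart. The number of genes over 1 TPM averaged 38146 ± 1035 in November and 38431 ± 1064 in October (SD, n = 6 trees each), and was higher in November in 3 of 6 trees (exact paired permutation test, two-sided p = 0.656, where 0.0313 is the smallest possible). The top 100 genes by TPM took up 18.0 ± 2.75% of it in November and 16.9 ± 2.06% in October (higher in 4 of 6 trees, exact p = 0.469). Across genes, the 2 trees of a site correlated with r between 0.963 and 0.982 in November and between 0.966 and 0.977 in October.

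The autumn step was a change of moderate size in a small part of the genes, and with all 3 sites its losses outnumbered its gains. Averaged over the sites, 893 genes were higher and 1296 were lower in November than in October, which is 2.22% and 3.23% of the genes tested and 5.45% together. The 893 genes that rose had a median level of 23.0 TPM in November and 7.20 TPM in October, and a median log2 change of 1.34. The 1296 genes that fell had a median of 5.26 TPM in November and 17.0 TPM in October, and a median log2 change of -1.26. Large averaged changes were rare: the change reached 2 in 126 of the rising and 101 of the falling genes, and reached 4 in 3 rising genes and in 0 falling genes. No gene went from under 1 TPM in all 6 October libraries to at least 10 TPM in all 6 November libraries, and none made the opposite change. The preponderance of losses is limited to changes of this size: by adjusted p alone, 10117 genes were higher and 8093 lower. It also rests on Hokkaido, for without that site 1373 genes were higher and 1100 lower. Both directions were spread evenly over the 2 classes of IDs in the table, with 2.23% rising and 3.19% falling among 20923 IDs that contain SPA, and 2.21% and 3.26% among 19238 that contain SPE.

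The 893 rising genes held between 4.44% and 12.5% of the TPM in the November libraries (median 6.20%) and between 1.34% and 2.78% in the October libraries (median 2.43%). The 1296 falling genes held between 1.16% and 3.64% in November (median 2.35%) and between 4.97% and 12.4% in October (median 5.33%). These genes were chosen by this difference, so the values are a description. The highest November share of rising genes was that of Hokkaido replicate 2, and the highest October shares of falling genes were those of both Tsukuba trees, at 12.4% and 12.2%. The 10 rising IDs that gained the most TPM summed to 17995 ± 8360 TPM in November and 3335 ± 1610 TPM in October (SD, n = 6 trees each). The 10 falling IDs that lost the most summed to 2048 ± 661 TPM in November and 12181 ± 11877 TPM in October, with an October range from 3096 to 27757 TPM.

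The gene with the largest rise had at most 4.30 TPM in October and at least 36.4 TPM in November. CYE_r3.1SPE2_g016690.1 had 70.4 and 36.4 TPM in the Fukuoka trees in November, against 4.30 and 2.33 TPM in October. In the Tsukuba trees it had 115 and 70.9 TPM in November and was listed at 0 in both in October, and in the Hokkaido trees it had 286 and 371 TPM in November and 3.45 and 3.28 TPM in October. Every November library lay above every October library, with Hokkaido highest in November. The change averaged 5.45 (SE 0.30) on the log2(TPM + 1) scale with a limma adjusted p of 9.01e-16, and it differed between sites (adjusted p = 0.00239), with 3.62 in Fukuoka, 6.51 in Tsukuba and 6.23 in Hokkaido. This ID was listed at 0 in all 24 leaf libraries, and its bud mean went on to 541 TPM in December and 726 TPM in January before 229 TPM in February and 121 TPM in March.

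The next largest rise was that of an ID that is abundant in leaves and that may share reads with CYE_r3.1SPE8_g015290.1 (r = 0.995 over the bud libraries), which rose by 4.99 on the log2 scale. CYE_r3.1SPA8_g013090.1 had 407 and 343 TPM in the Fukuoka trees in November, against 11.9 and 13.3 TPM in October. In the Tsukuba trees it had 199 and 212 TPM in November and 1.06 and 0.935 TPM in October. In the Hokkaido trees it had 747 and 1178 TPM in November and 53.4 and 41.6 TPM in October. The groups did not overlap, and the order of the sites, Hokkaido above Fukuoka above Tsukuba, was the same in both months. The log2 change averaged 5.25 (SE 0.18, limma adjusted p = 1.2e-20) and differed between sites (adjusted p = 0.000123). The ID averaged 1208 TPM over the 24 leaf libraries of June to early September, but 1.06 TPM in June buds, 0.985 TPM in July buds and 1.66 TPM in August buds.

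Among genes with the same sign of change in all 6 trees, the 2 largest falls belonged to IDs of nearly equal level, which correlated with each other with r = 1.00 over the bud libraries and may share reads, so that neither level is certain on its own. CYE_r3.1SPA2_g034430.1, with an averaged log2 change of -3.58, fell in Tsukuba and Fukuoka and had a change of 0.46 (limma adjusted p = 0.605) in Hokkaido. CYE_r3.1SPA3_g011650.1 had 0.477 and 1.21 TPM in Fukuoka in November, against 18.1 and 22.2 TPM in October. It had 0.623 and 0.454 TPM in Tsukuba in November and 12.2 and 12.7 TPM in October, and 0.121 and 0 TPM in Hokkaido in November and 8.68 and 8.55 TPM in October. The change was alike in the 6 trees, between -3.69 and -3.02 on the log2 scale, with a mean of -3.29 (SE 0.18, limma adjusted p = 4.68e-16). CYE_r3.1SPA0_g138570.1 averaged 0.473 ± 0.424 TPM in November and 13.4 ± 5.19 TPM in October (SD, n = 6 trees each), a log2 change of -3.26 (SE 0.18, limma adjusted p = 7.54e-16). The October level was already far below that of summer: CYE_r3.1SPA3_g011650.1 averaged 291 TPM in June, 383 TPM in July, 190 TPM in August and 136 TPM in September, and reached 3.48 TPM again in March. The test of a site difference was not passed by CYE_r3.1SPA3_g011650.1 (adjusted p = 0.672) or by CYE_r3.1SPA0_g138570.1 (adjusted p = 0.739).

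**Figure D1:**
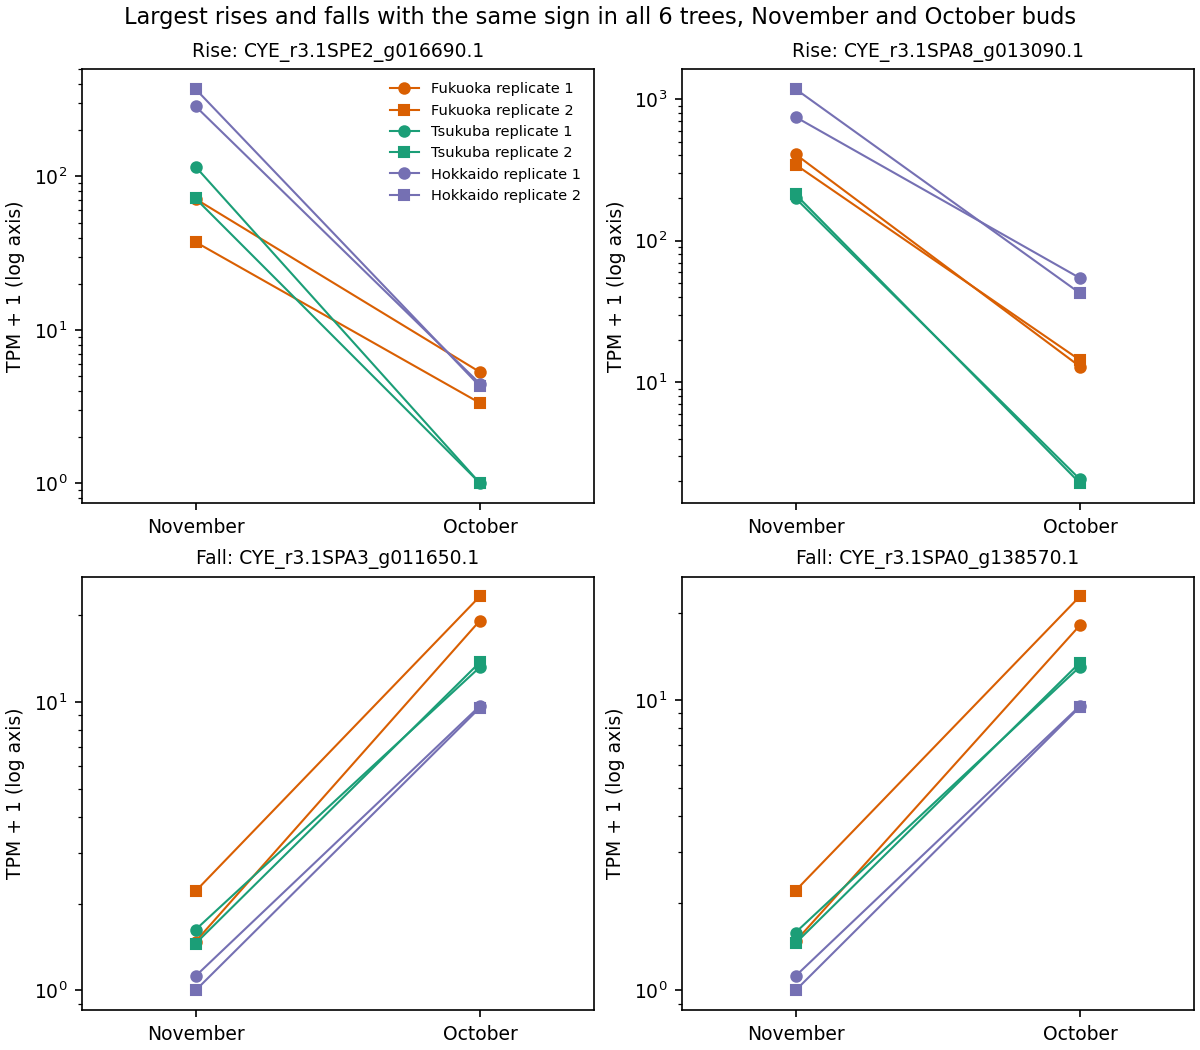
TPM + 1 on a log axis for the 2 largest rises (top) and the 2 largest falls with the same sign in all 6 trees (bottom), November at the left and October at the right, with 1 line per tree, coloured by site. Every November point lies above every October point for the rises, from 36.4 TPM upward for CYE_r3.1SPE2_g016690.1 in November, and below for the falls, none over 1.21 TPM in November.

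Most called genes moved the same way in every tree. All 6 trees were higher in November for 733 of the 893 rising genes and lower for 959 of the 1296 falling genes, where 12.1% and 9.69% of all genes tested did so. The November and October libraries did not overlap at all for 413 rising and 360 falling genes, against 3.09% and 2.04% of all genes tested. These counts use the contrast that chose the genes and are no further evidence. Tree by tree, the median change of the rising genes ran from 1.09 in Fukuoka replicate 2 to 2.03 in Hokkaido replicate 2. That of the falling genes ran from -1.04 in Fukuoka replicate 2 to -1.84 in Hokkaido replicate 2. Across all genes, the changes of the 2 trees of a site correlated with r = 0.639 in Fukuoka, 0.762 in Tsukuba and 0.765 in Hokkaido.

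Some called genes lay beside each other in the ID numbering. Of the rising genes, 103 (11.5%) had a neighbouring ID number that also rose, while 2.61% of all genes tested stood beside a rising ID. Of the falling genes, 115 (8.87%) had a neighbour that also fell, against 3.67% of all genes tested. The longest runs of consecutive IDs were 3 rising and 4 falling. Neighbouring IDs can be similar copies that share reads, so these counts are a description of the IDs.

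The labels give each library a number, whose role they do not explain. The numbers were grouped here by size into series, which are not named in the labels. By this grouping, October and November belong to the same series in 4 trees and to different series in 2 trees, Fukuoka replicate 2 and Hokkaido replicate 1. With the series as a term in the fit, 2299 genes were called, and 2068 of them were among the 2189 of the averaged comparison with the same direction. In those 4 trees alone, 2627 genes were called, of which 1949 were shared with the 2189.

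The step was not the same at the 3 sites, and the sites differed in both the number and the direction of the changes. Within Fukuoka 639 genes were higher and 735 lower in November (1.59% and 1.83% of the genes tested, 3.42% together). Within Tsukuba 4027 were higher and 1902 lower (10% and 4.74%, 14.8% together). Within Hokkaido 1845 were higher and 4930 lower (4.59% and 12.3%, 16.9% together). The change differed between sites in 11484 genes (28.6%) by limma's F test with a range of at least 1. By pairs of sites, the change in Tsukuba differed from that in Fukuoka in 3229 genes (8.04%), with 2522 more positive in Tsukuba (6.28%) and 707 more negative (1.76%). The change in Hokkaido differed from that in Fukuoka in 3977 genes (9.9%), with 952 more positive in Hokkaido (2.37%) and 3025 more negative (7.53%). It differed from that in Tsukuba in 11302 genes (28.1%), with 2227 more positive in Hokkaido (5.55%) and 9075 more negative (22.6%). These directions moved with the scaling of the libraries: median scaling gave 1071 and 1298 for Tsukuba against Fukuoka, 1625 and 1607 for Hokkaido against Fukuoka, and 5003 and 4266 for Hokkaido against Tsukuba, and quantile normalization gave 1261 and 1201, 1491 and 1814, and 4409 and 5023. The Fukuoka counts rest on both trees: without Fukuoka replicate 1, 637 genes were called within Fukuoka and 1512 for Tsukuba against Fukuoka. Without Fukuoka replicate 2 it was 551 within Fukuoka and 1032 for Hokkaido against Fukuoka. Without Hokkaido replicate 2, 4512 genes were called within Hokkaido and 1463 for Hokkaido against Fukuoka. Of the 2189 genes called in the averaged comparison, 1110 (50.7%) were among those that differed between sites.

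The excess of gains in Tsukuba came with a shift of all genes, and it turned when the libraries were scaled to each other. Over all genes the median change was 0.25 in Tsukuba, -0.16 in Hokkaido and 0.01 in Fukuoka. The median level of the tested genes was 3.18 and 3.20 in the Tsukuba libraries in November, against 2.94 and 2.90 in October, on the log2(TPM + 1) scale. In Hokkaido it was 3.11 and 2.95 in November, against 3.30 and 3.22 in October. After the medians were made equal, 2030 genes were higher and 3090 lower in Tsukuba, and 2762 higher and 3319 lower in Hokkaido. After quantile normalization it was 2376 higher and 2741 lower in Tsukuba, and 2635 and 3480 in Hokkaido. The direction in Tsukuba thus turned with the scaling, while losses outnumbered gains in Hokkaido under all 3 scalings. The number of genes whose change differed between sites was 9417 after median scaling and 9572 after quantile normalization.

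**Figure D2:**
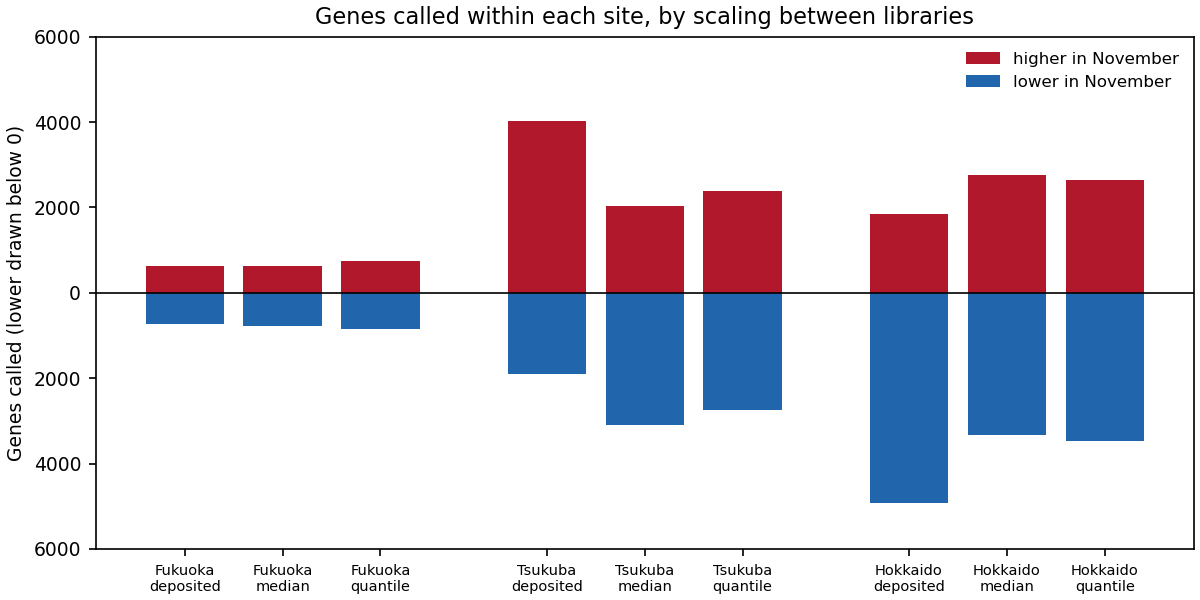
Genes called within each site, November against October, with genes higher in November drawn above 0 and genes lower in November drawn below 0, as deposited and with each of the scalings by median and by quantile. The Tsukuba bars turn from 4027 higher and 1902 lower as deposited to 2030 higher and 3090 lower after median scaling.

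The changes in Fukuoka were correlated with those at both other sites, and those of Hokkaido and Tsukuba hardly with each other. Across genes, the change in Tsukuba correlated with that in Fukuoka with r = 0.537, and the change in Hokkaido with that in Fukuoka with r = 0.498. The change in Hokkaido correlated with that in Tsukuba with r = 0.0775, or 0.0620 after quantile normalization. The sites share no library, and these r describe genes, which are no replicates. Of the 4027 genes that rose in Tsukuba and the 639 that rose in Fukuoka, 382 rose in both, which is 9.49% of the first list and 59.8% of the second. Of the 1845 that rose in Hokkaido and the same 639, 378 rose in both, 20.5% and 59.2% of the lists. Opposite calls between Fukuoka and another site were rare, with 2 and 4 genes in the opposite directions against Tsukuba and 7 and 5 against Hokkaido. Between Hokkaido and Tsukuba, 433 genes rose and 478 fell at both sites, while 746 rose in Tsukuba and fell in Hokkaido and 136 fell in Tsukuba and rose in Hokkaido. After median scaling the opposite calls were 362 and 276, beside 359 genes that rose and 497 that fell at both sites.

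**Figure D3:**
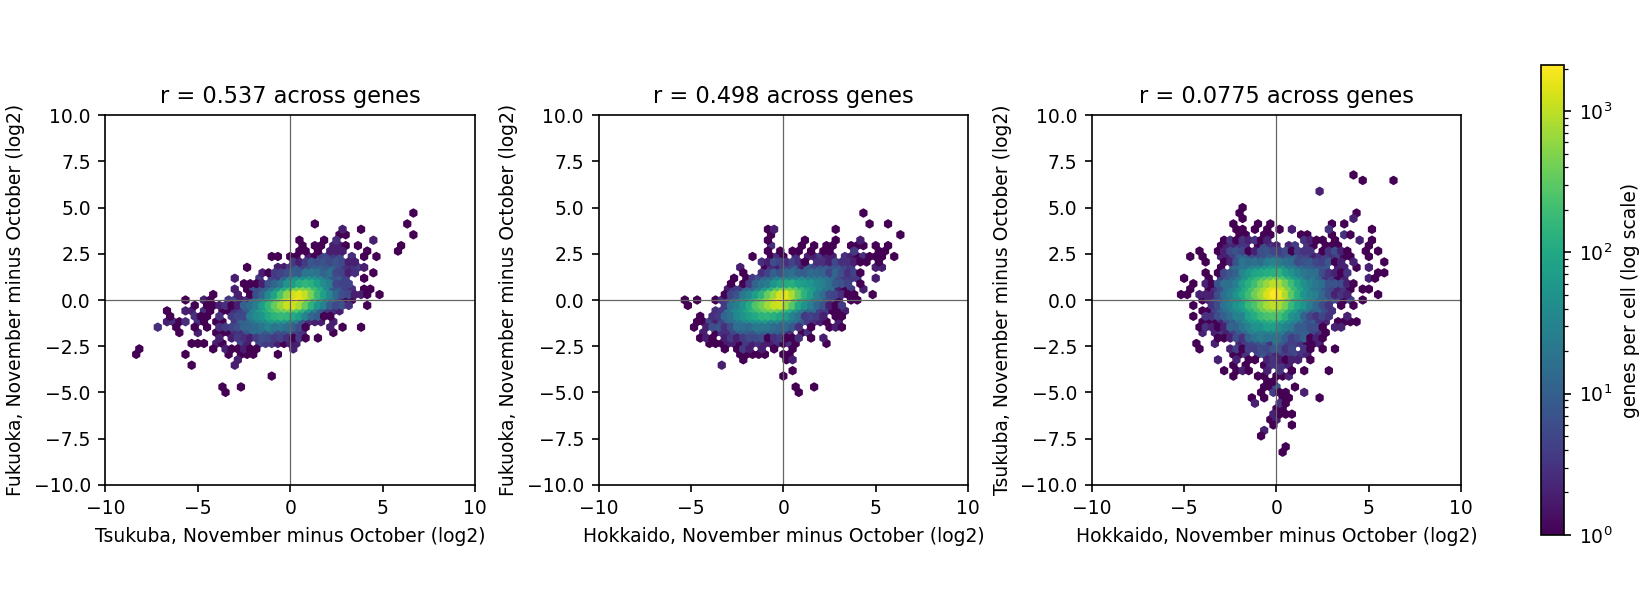
November minus October change of each of the 40161 genes on the log2(TPM + 1) scale at one site against another, with colour for the number of genes per cell. The Tsukuba and Hokkaido changes each line up with those of Fukuoka (r = 0.537 and 0.498), and the cloud of Hokkaido against Tsukuba has hardly any slope (r = 0.0775).

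A common set of genes was called in the same direction within each of the 3 sites. It held 234 rising genes (0.583% of the genes tested) and 215 falling genes (0.535%). The median log2 change of the 234 was 1.50 in Fukuoka and 1.80 in Tsukuba and was highest in Hokkaido, and that of the 215 was -1.50 for Fukuoka, -1.65 for Tsukuba and -1.57 for Hokkaido. The size of the change differed between sites in 86 of the rising genes (36.8%) and 40 of the falling genes (18.6%), beside 28.6% of all genes tested. After median scaling the common set held 201 rising and 207 falling genes.

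The October buds of Tsukuba, collected on day 7, lay farther from those of the other sites than its November buds did, while Hokkaido and Fukuoka lay farther apart in November. The sites differed in 6081 genes in November (15.1%) and in 10046 genes in October (25%). The median absolute difference between Tsukuba and Fukuoka was 0.27 in November and 0.51 in October on the log2 scale, and between Hokkaido and Tsukuba 0.34 in November and 0.54 in October. Between Hokkaido and Fukuoka it was 0.33 in November and 0.21 in October. These site differences are of the values as deposited and were not redone after scaling. In October the median level of the tested genes was 2.94 and 2.90 in the Tsukuba libraries and between 3.22 and 3.30 at the other sites. Without Tsukuba, November minus October averaged over the other sites called 3153 genes, of which 1696 were shared with the 2189.

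The most negative difference of Tsukuba from Fukuoka was that of CYE_r3.1SPE4_g009480.1. It had 1.97 and 0.433 TPM in Tsukuba in November, against 198 and 194 TPM in October. In Fukuoka it had 0.193 and 0 TPM in November and 0.403 and 0.772 TPM in October. In these 2 months, only the October buds of Tsukuba had more than about 2 TPM of it at these sites. Earlier buds also had it, with means over the sites of 15.9 TPM in July, 71.5 TPM in August and 14.1 TPM in September. The difference of changes was -6.05 (SE 0.41, limma adjusted p = 5.95e-12). The most positive was CYE_r3.1SPE1_g031880.1, with 47.1 and 35.4 TPM in Tsukuba in November, against 1.28 and 0 TPM in October. In Fukuoka it had 34.0 and 37.2 TPM in November and 27.4 and 27.3 TPM in October. The difference of changes was 4.43 (SE 0.63, limma adjusted p = 1.09e-05). For both IDs it was the October level that set Tsukuba apart from Fukuoka.

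The same October samples led the most positive difference of Hokkaido from Tsukuba. CYE_r3.1SPA2_g034430.1 had 2.59 and 3.10 TPM in Hokkaido in November, against 0.959 and 2.98 TPM in October. In Tsukuba it had 21.3 and 8.57 TPM in November, against 5050 and 4305 TPM in October. Over the sites it had averaged 3065 TPM in August buds. It correlated with another ID with r = 0.995 over the bud libraries, so reads may be shared. The difference of changes was 8.78 (SE 0.91, limma adjusted p = 3.62e-09). CYE_r3.1SPE5_g024990.1 had the most negative difference, -7.06 (SE 0.88, limma adjusted p = 9.64e-08). It had 1.31 and 0.678 TPM in Hokkaido in November against 34.1 and 42.9 TPM in October, and 7.01 and 9.63 TPM in Tsukuba in November against 0.896 and 0 TPM in October. The change of this ID was -4.32 in Hokkaido and 2.74 in Tsukuba, so its levels fell at one site and rose at the other.

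Between Hokkaido and Fukuoka, the most positive difference came from a fall in Fukuoka and the most negative from a fall in Hokkaido. CYE_r3.1SPE2_g033060.1 had 28.3 and 20.4 TPM in Hokkaido in November, against 8.26 and 6.18 TPM in October, and 4.73 and 3.57 TPM in Fukuoka in November, against 105 and 171 TPM in October. The difference of changes was 6.34 (SE 0.95, limma adjusted p = 6.17e-05), and its adjusted p was 0.0710 where only trees with an unchanged series were used. CYE_r3.1SPA3_g025380.1 had 27.2 and 1.99 TPM in Hokkaido in November, against 317 and 337 TPM in October, and 167 and 148 TPM in Fukuoka in November, against 168 and 286 TPM in October. The difference was -4.68 (SE 0.85, limma adjusted p = 0.000397), with an adjusted p of 0.0549 without Hokkaido replicate 2 and 0.0616 from the 12 October and November libraries alone. The Hokkaido trees were unlike each other in November for this ID.

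The step was compared with the step that follows it. The first step spanned more days than the second at every site, most so in Tsukuba, and different trees changed library series in each step. The parts of month, interval and series in the difference therefore cannot be told apart, and the step from September to October was not compared. The change from October to November differed from that from November to December in 2126 genes (5.29% of the genes tested), 1071 with the more positive (2.67%) and 1055 with the more negative change (2.63%) in the first step. Among genes with the same sign in all 6 trees, CYE_r3.1SPA8_g013090.1 led the positive differences at 4.29 (SE 0.32, limma adjusted p = 9.81e-11). It averaged 20.4 ± 22.0 TPM in October, 514 ± 381 TPM in November and 814 ± 95.2 TPM in December (SD, n = 6 trees each). The spread between trees had narrowed in December, when the lowest tree had 739 TPM and the highest 963 TPM. CYE_r3.1SPE8_g015290.1 followed at 4.16 (SE 0.36, limma adjusted p = 3.05e-09), with 15.9 ± 14.5, 402 ± 292 and 598 ± 76.7 TPM in these months, and it correlated with CYE_r3.1SPA8_g013090.1 with r = 0.995 over the bud libraries, so the pair may share reads. On the log2 scale both IDs had most of their rise in the earlier step.

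Among such genes, the most negative difference between the steps belonged to a gene that dipped in November. CYE_r3.1SPE2_g032090.1 averaged 57.2 ± 35.7 TPM in October, 13.3 ± 9.68 TPM in November and 43.8 ± 12.1 TPM in December (SD, n = 6 trees each). The difference between its steps was -4.08 (SE 0.50, limma adjusted p = 6.98e-07), and in January the ID averaged 8.64 TPM. CYE_r3.1SPA2_g034370.1 was next among them at -3.46 (SE 0.31, limma adjusted p = 3.77e-09), with 11.2 ± 2.42 TPM in November and 732 ± 1099 TPM in October. Its October level lay in Tsukuba, at 2232 and 2068 TPM, while the other trees had between 16.2 and 29.8 TPM. In August buds it had averaged 1327 TPM over the sites. It had r over 0.99 with 2 other IDs, with which it may share reads.

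Over the year the called genes went on past November to an extreme in January. Their October and November levels were fixed by the choice of genes, and the other months were not. The median level of the 893 rising genes, as a mean of the sites, was 2.84 in June, 2.49 in August, 3.06 in September and 2.89 in October on the log2(TPM + 1) scale. It was 4.38 in November, 4.67 in December, 5.01 in January, 4.45 in February and 3.74 in March. The 1296 falling genes had a median of 3.72 in June, 4.27 in August and 3.84 in October, and of 2.47 in November, 1.19 in January, 1.71 in February and 2.71 in March. Over all genes tested, the monthly median stayed between 3.07 and 3.33. The sites met in January: the rising genes had a median of 4.89 in Fukuoka, 5.08 in Tsukuba and 5.07 in Hokkaido, while in November it was 4.34, 3.89 and 5.00. Of the sites, Hokkaido had the November median nearest to its own January median, and Tsukuba the farthest. The highest month was January for 467 of the rising genes (52.3%) and November for 89 (9.97%), where these months were the highest for 12.2% and 2.25% of all genes tested. The lowest month was January for 851 of the falling genes (65.7%) and for 25.5% of all genes tested.

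**Figure D4:**
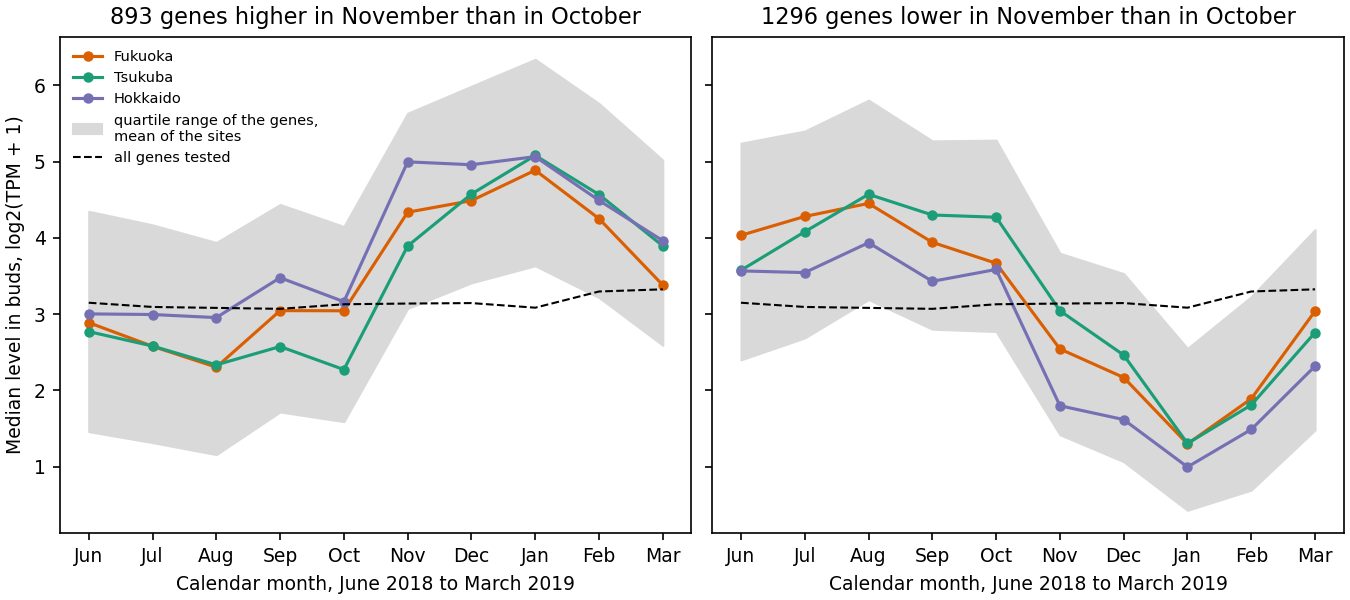
Median log2(TPM + 1) in buds by calendar month from June to March for the 893 rising genes (left) and the 1296 falling genes (right), 1 line per site, with the quartile range of the genes shaded and the median of all genes tested dashed. The rising genes have medians of 2.89 in October, 4.38 in November and 5.01 in January as a mean of the sites, and the falling genes reach 1.19 in January.

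Comparisons that share no library with October or November measured these genes in other samples, and shares are set beside those of all genes tested as a description. The last comparisons of winter share their January libraries. From December to January the 2 lists went on in the direction they had taken. In January 129 of the 893 rising genes (14.4%) were higher and 34 (3.81%) lower than in December, where 1.19% and 4.03% of all genes tested were (5.22% together). Of the 1296 falling genes, 12 (0.926%) were higher and 393 (30.3%) lower. The median change was 0.30 for the rising genes, -0.60 for the falling genes and -0.02 for all genes. With Hokkaido left out of both the choice of genes and this comparison, 6.19% of rising genes were higher and 13.5% lower in January. The shares of all genes were not worked out for that setting. For the 893 genes, the median log2(TPM + 1) was 4.49 in December and 4.89 in January in Fukuoka. It was 4.58 and 5.08 in Tsukuba, and 4.96 and 5.07 in Hokkaido.

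By March many of these genes had moved back. In March 492 of the rising genes (55.1%) were lower and 36 (4.03%) higher than in January, where 4.93% and 16.2% of all genes tested were (21.1% together). Of the falling genes, 740 (57.1%) were higher and 26 (2.01%) lower. The median change was -1.15 for the rising genes, 1.18 for the falling genes and 0.18 for all genes. CYE_r3.1SPE2_g016690.1 fell by 2.20 (SE 0.30, limma adjusted p = 7.36e-08) on the log2 scale in March relative to January, and CYE_r3.1SPA8_g013090.1 fell by 3.30 (SE 0.18, limma adjusted p = 7.67e-17).

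The lists of the single sites had different shares of such genes, and the differences between lists were not tested. Of the genes that rose within Hokkaido, 55.9% were lower in March than in January, of those of Fukuoka 45.5%, and of the 234 that rose at every site 78.2%. Of the genes that rose within Tsukuba, 8.42% were lower and 29.6% higher. Of the genes that fell within Hokkaido 67.0% were higher in March, of those of Fukuoka 46.5% and of the 215 common ones 55.8%. Of the genes that fell within Tsukuba, 21.2% were higher and 11.1% lower, beside 16.2% and 4.93% of all genes tested. After median scaling the genes that rose in Tsukuba were lower in 13.7% and higher in 28.5%, beside 8.21% and 11.3% of all genes tested. The genes that fell in Tsukuba were then higher in 14.0% and lower in 13.8%, and after quantile normalization higher in 11.3% and lower in 13.9%, where 10.5% and 7.42% of all genes tested were. With Hokkaido left out of the averaged comparison, 2473 genes were called, 1385 of them shared with the 2189. March minus January was then also taken without Hokkaido. It gave 25.1% of these rising genes lower and 23.9% higher, and 33.3% of the falling genes higher and 9.18% lower. The shares of all genes were not worked out without Hokkaido, so these values do not compare directly with those above.

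Between June and September, before the step, both lists held larger shares of changed genes than all genes tested did, in both directions. Of the rising genes 13.2% were higher and 6.49% lower in September than in June, and of the falling genes 22.3% were higher and 10.5% lower. Of all genes tested, 3.66% were higher and 3.93% lower (7.59% together). With Hokkaido left out of both the choice of genes and this comparison, the shares of the rising genes were 7.94% higher and 16.0% lower. The shares of all genes were not worked out for that setting.

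Most of the genes that fell in November were lower in leaves than in buds. In leaves of June to early September, 912 of the 1296 falling genes (70.4%) were lower and 77 (5.94%) higher than in buds of the same trees and dates, where 25.2% of all genes tested were lower and 9.05% higher (34.2% together). All genes tested had passed a filter on their mean in buds, which favours genes lower in leaf. The falling genes were also chosen for a higher level in October buds. After median scaling 58.2% of the falling genes were lower and 8.83% higher in leaf, and after quantile normalization 57.9% and 7.68%. The median leaf minus bud difference was -0.29 for the rising genes, -1.83 for the falling genes and -0.47 for all genes (tree means, n = 6 trees). Of the rising genes, 259 (29.0%) were lower and 169 (18.9%) higher in leaf. That balance turned with the scaling: 19.6% were lower and 25.4% higher after median scaling, and 17.8% lower and 26.3% higher after quantile normalization. The shares of all genes were not worked out under these scalings. Whether the turn was particular to the rising genes was not tested. The leaf minus bud difference was -6.83 for CYE_r3.1SPA3_g011650.1 and 8.88 for CYE_r3.1SPA8_g013090.1 on the log2 scale. Leaf libraries were uneven for CYE_r3.1SPA3_g011650.1, with a mean of 38.1 TPM and a highest value of 507 TPM. Leaf and bud RNA were extracted by different methods per the labels, so the part of the extraction in these differences cannot be told apart from that of the tissue.

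**Figure D5:**
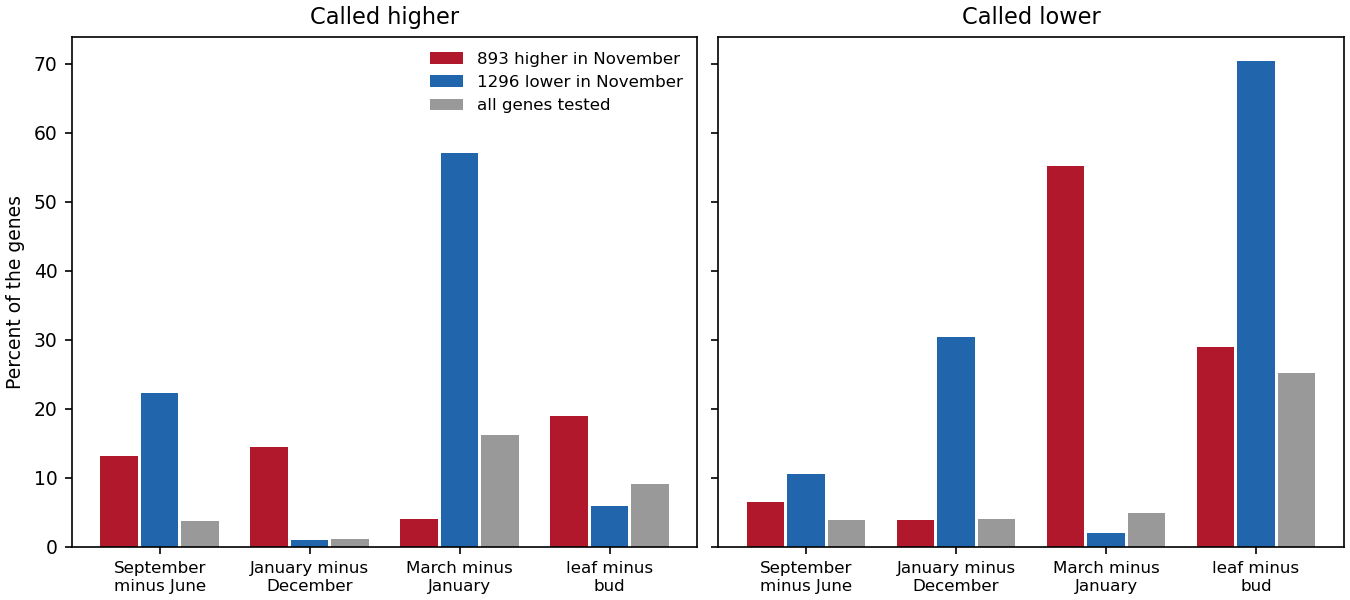
Percent of the 893 rising genes, the 1296 falling genes and all 40161 genes tested that were called higher (left) or lower (right) in comparisons without October or November libraries. In March minus January, 55.1% of the rising genes were lower and 57.1% of the falling genes higher, and in leaf minus bud 70.4% of the falling genes were lower.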

How the data were processed

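The authors deposited TPM values for each gene ID in each library. Tissue and site follow the labels. The tools fastp 0.20.0, STAR 1.5.2 and StringTie 1.3.5 appear in the submitters' processing notes with no role or setting. Genome build and annotation: not given in the sources used here. A second deposited table repeats these values and was not used. The division of reads between similar copies is not stated. Of the 95076 IDs, 28911 were at 0 in every library.

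The deposited values were put on the log2(TPM + 1) scale. All 66 bud libraries entered a limma fit (version 3.58.1, R version 4.3.3), with 1 mean for each of 33 groups of site and date and tree within site as a block (30 residual degrees of freedom), and Benjamini-Hochberg adjustment over the 40161 genes averaging 1 TPM or more in these libraries. Leaf minus bud used tree means over the first 4 collections. Trees are separate plants of 1 clone. In the bud fit the block takes out lasting differences between the trees of a site. Its p-values therefore rest on how unlike the trees of a site moved from date to date and on technical variation, pooled over all bud libraries. Pairing comes from the tree labels; as a check, differences between trees within a site were correlated across genes, November with October, and r was 0.152 (Fukuoka), 0.00839 (Tsukuba) and 0.114 (Hokkaido).

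Named genes were, among called genes with a mean of at least 5 TPM over the 12 libraries, the 2 largest rises and falls with the same sign in all 6 trees, likewise for the difference between steps, and 1 in each direction per pair of sites. No marker could be checked without gene names, so tissue rests on the labels. The comparison and lists were chosen with earlier results of these data known. Alternatives covered pseudocount, filter, scaling, eBayes options, the block, library series, and omission of trees and sites. A simulation used independent normal noise with the largest spreads cut, and changed only genes with a mean level of at least about 5 TPM. Of 200 such genes changed by 1.5 on the log2 scale among 40161, November minus October recovered 100%. There was 1 false call among 39361 unchanged genes. Recovery of low genes and of the most variable ones was not checked. Plots used matplotlib 3.10.9 in Python 3.11.15.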

Additional observations from a re-analysis of the deposited data

Results flagged for a closer look

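Among the values of this comparison, those below differed between sites by a test of the difference itself. The November minus October change differed between the 3 sites in 11484 genes by limma's F test. By pairs of sites it differed in 3229 genes for Tsukuba minus Fukuoka, in 3977 for Hokkaido minus Fukuoka and in 11302 for Hokkaido minus Tsukuba. Both genes with the largest averaged rise differed between sites, CYE_r3.1SPE2_g016690.1 with a limma adjusted p of 0.00239 and CYE_r3.1SPA8_g013090.1 with 0.000123. The parts of site, date and interval in these differences cannot be told apart.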

How the results depend on the processing

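The averaged count of 2189 genes lay between 1961 and 2586 when each tree was left out. It was 2199 after median scaling, 2216 after quantile normalization, 2210 with no filter, 1718 with a minimum mean of 5 TPM and 2181 from the 12 October and November libraries alone. Without a block for the tree, which ends the pairing in the fit, 2181 genes were called, and the pairing changed no call of a named gene. With a pseudocount of 0.1 the count was 3806, and the share of rising genes lower in September than in June was 12.6%, that of falling genes lower in September 16.4%, and that of rising genes higher in March than in January 11.0%. After quantile normalization 17.8% of rising genes were lower in leaf. With no minimum change, an alternative chosen after seeing the data, 18210 genes were called in the averaged comparison, 4860 in Fukuoka, 17884 in Tsukuba and 16526 in Hokkaido, 17380 differed between the sites, and the pairs of sites gave 7381 for Tsukuba minus Fukuoka, 6775 for Hokkaido minus Fukuoka and 18312 for Hokkaido minus Tsukuba. With Hokkaido left out of both the choice of genes and the comparisons, 7.94% of rising genes were higher and 16.0% lower in September than in June. In January 6.19% were higher and 13.5% lower than in December. In March 23.9% were higher and 25.1% lower than in January. Of the falling genes, 33.3% were then higher and 9.18% lower in March. With each tree left out in turn, the Fukuoka count ranged from 551 to 1398, the Hokkaido count from 4512 to 8184, Tsukuba minus Fukuoka from 1512 to 3260 and Hokkaido minus Fukuoka from 1032 to 5263. With a tree left out, its site keeps 1 tree per date, which is assumed to vary like the other groups. The cause of these shifts was not tested. The median change of all genes was 0.25 in Tsukuba and -0.16 in Hokkaido as deposited, -0.02 and 0.07 with median scaling, and 0.03 at both sites with quantile normalization. With no filter, which adds many IDs at or near 0, it was 0.02 in Tsukuba and -0.0025 in Hokkaido. The difference between steps has no value from the 12 libraries alone, with a site left out or with the library series. TPM keeps no depth, so low levels cannot be given a counting error.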
